A study of Mus musculus with 2 samples.

Results

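The cathepsin genes were the 9 protease genes Ctsb, Ctsc, Ctsd, Ctsh, Ctsk, Ctsl, Ctss, Ctsw and Ctsz, taken by symbol from the 32285 genes of the files, and all 9 were found. Their unique molecular identifiers (UMIs, each standing for 1 captured transcript) were summed over the cells of each class in each of 2 single-cell libraries. KPC cells are a mouse pancreatic cancer line. The group KPC-shV came from 1 orthotopic allograft tumour grown in the pancreas of a mouse injected with KPC cells carrying the control vector, and the group KPC-shZEB1 from 1 tumour of KPC cells carrying a hairpin against ZEB1. Per the study's text, the hosts were immunocompetent mice and both tumours came from mice given gemcitabine, which the labels do not state. Its methods list C57BL/6J among the strains used without tying a strain to these tumours. The hairpins were carried by the injected cells, so the immune, stromal and endothelial cells belonged to hosts without them. With 1 library a group there were no replicates and no test. Each level is therefore given with an exact Poisson 95% interval and each ratio with an exact conditional binomial 95% interval, and both cover counting error only.

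Cathepsins are proteases of endosomes and lysosomes, made as inactive precursors and activated in acid. Most are cysteine proteases of the papain family, whereas cathepsin D is an aspartic protease. Some cut inside proteins, others trim their ends, and in tumours macrophages are known as a main source of the secreted forms, which can degrade matrix.

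The filters left 11394 cells of KPC-shV with a median of 3721 UMIs and 12113 cells of KPC-shZEB1 with a median of 4254. Cells were grouped into 9 classes that had at least 50 cells in each library, and each is called X-like because the names were rebuilt from marker genes. Every class held its own markers, none of them at 0, and their summed level was above that in each other class, with T-like and NK-like cells not set against each other, dendritic-like cells judged by the type 2 list and monocyte-macrophage-like cells by the macrophage list. The 6 markers of the monocyte list did not set that class apart, with a sum of 2156 and 1718 CPM (counts per 1000000 UMIs) beside 3329 and 3079 CPM in fibroblast-like and 2963 and 2529 CPM in tumour-like cells. The larger dendritic-like cluster was named by the 5 markers of the mature dendritic list. These did not set the dendritic-like class apart from NK-like cells, at 2604 and 2613 CPM beside 2745 and 2533 CPM. The hairpin target went against the label. In tumour-like cells, Zeb1 stood at 165 CPM (161 to 170) in KPC-shV and 176 CPM (171 to 181) in KPC-shZEB1, a ratio of 1.07 (1.03 to 1.11). Directions are therefore given as the library labelled KPC-shZEB1 relative to that labelled KPC-shV. The libraries shared 46 barcodes, of which 36 were among the cells kept, and leaving them out changed no call.

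Transcripts of macrophage marker genes were found in every class. The summed level of C1qa, C1qb and C1qc, complement genes that define macrophages, was 194 to 286 CPM in the 8 other classes of KPC-shV and 558 to 782 CPM in the same classes of the library labelled KPC-shZEB1, beside 5395 and 7636 CPM in monocyte-macrophage-like cells. All 8 markers of the macrophage list were detected in each of these classes, with a summed level of 600 to 880 CPM in KPC-shV and 1844 to 2450 CPM in the other library. For each cathepsin, the level at which it would stand beside this C1q level in the proportion that macrophages show was computed in each class, and is called the macrophage-RNA level below.

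The 9 genes lie on 7 chromosomes of GRCm38, in coordinates of GENCODE vM21. Ctsb is on chromosome 14 (63122462 to 63145923, plus strand), Ctsh on 9 (90054152 to 90076089, plus), Ctsl on 13 (64359337 to 64370890, minus), Ctsw on 19 (5465043 to 5468507, minus) and Ctsz on 2 (174427493 to 174439039, minus). Ctsc (88278085 to 88310888, plus) and Ctsd (142375911 to 142388038, minus) are both on chromosome 7 but far apart. Ctsk (chromosome 3, 95499256 to 95509362, plus strand) ends 17423 bases before Ctss (chromosome 3, 95526786 to 95556403, plus strand) starts. Despite this the neighbours differed in where they were highest, fibroblast-like cells for Ctsk and monocyte-macrophage-like cells for Ctss. Their promoters, 250 bases before to 50 bases after the start from RefSeq on GRCm38.p6, are shown for this reason, at chr3:95498960-95499259 for Ctsk and chr3:95526536-95526835 for Ctss. Capitals mark GAGGAA on either strand, the core that the myeloid factor PU.1 can bind, and GAAANNGAAA on either strand, the type of repeat that interferon regulatory factors can bind.

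Ctsk: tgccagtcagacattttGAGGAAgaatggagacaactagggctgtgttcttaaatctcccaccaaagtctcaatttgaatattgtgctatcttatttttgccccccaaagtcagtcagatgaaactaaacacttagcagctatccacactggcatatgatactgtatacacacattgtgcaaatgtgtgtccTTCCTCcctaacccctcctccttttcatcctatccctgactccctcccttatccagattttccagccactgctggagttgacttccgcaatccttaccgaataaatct
Ctss: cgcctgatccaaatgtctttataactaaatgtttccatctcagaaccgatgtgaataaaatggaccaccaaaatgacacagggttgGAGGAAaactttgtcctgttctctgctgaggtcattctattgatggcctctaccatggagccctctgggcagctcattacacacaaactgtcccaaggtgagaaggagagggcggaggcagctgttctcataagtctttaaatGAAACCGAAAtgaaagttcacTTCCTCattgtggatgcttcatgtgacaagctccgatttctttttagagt

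Both promoters held 2 copies of GAGGAA, which 28.3% of the 32817 RefSeq promoters of this length hold at least once. Only the Ctss promoter of the pair held GAAANNGAAA, found in 3.43% of promoters and not overlapping GAGGAA here. RefSeq promoters matched 6 of the 9 genes, the others being Ctsb, Ctsh and Ctsw. CACGTG, the core of the element read by lysosomal regulators of the TFEB family, is in 7.15% of promoters and was found in those of Ctsd, with 2 copies, and Ctsl, with 1. GAGGAA was also found in the Ctsc promoter, with 2 copies, and the Ctsz promoter held none of the 3 motifs. A match describes the letters and not a bound site.

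Of the 9 genes, 6 were highest in monocyte-macrophage-like cells, 2 in fibroblast-like cells and 1 in NK-like cells, and the highest class was the same in both libraries for all 9. Monocyte-macrophage-like cells gave 23.1% of all UMIs in KPC-shV, and 31.9% in that labelled KPC-shZEB1, but 80.2% and 79.2% of Ctss, 75.6% and 77.7% of Ctsc, 53.6% and 65.1% of Ctsb, and 53.7% and 65.7% of Ctsd. Below, neighbours in the order of classes are said to overlap when the ranges between their 2 libraries do. Levels are CPM of the class total and are compared between classes for a gene and not between genes.

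**Figure D1:**
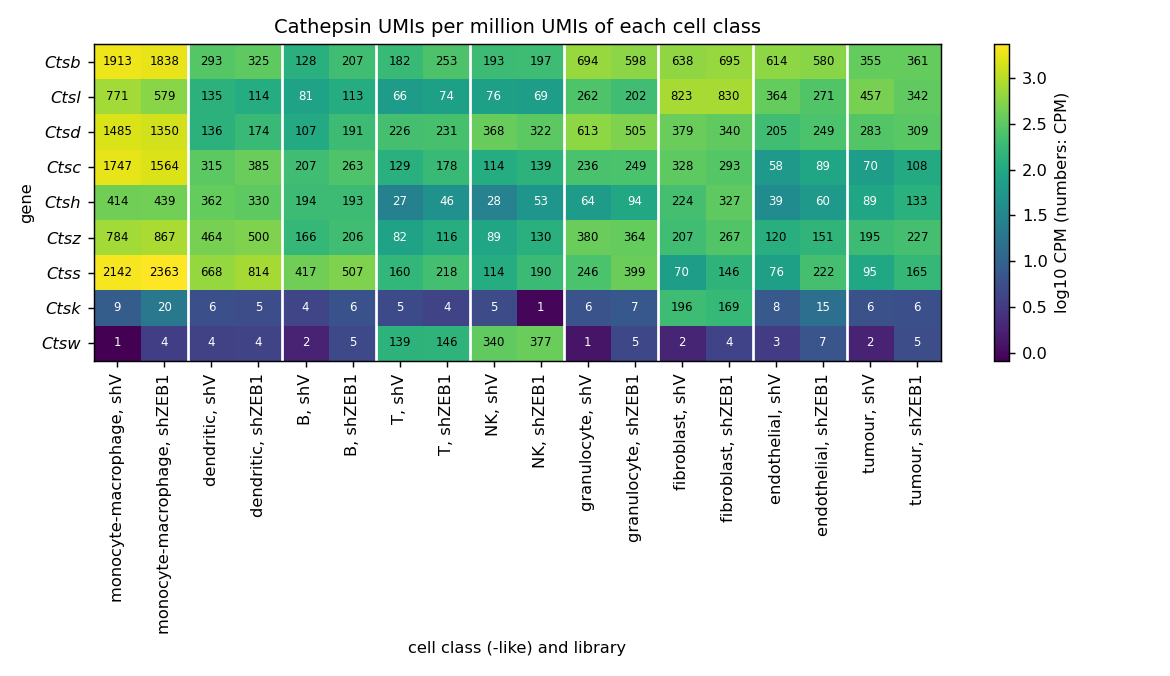
Heat map of the level of each cathepsin gene (rows) in each cell class and library (columns), coloured by log10 CPM with the CPM printed in each field. Ctsb, Ctsd, Ctsc, Ctsh, Ctsz and Ctss peak in monocyte-macrophage-like cells, Ctsl and Ctsk in fibroblast-like cells and Ctsw in NK-like cells, up to 377 CPM.

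Ctsb encodes cathepsin B, a cysteine protease that both cuts inside proteins and removes dipeptides from their ends. It stood at 1913 CPM in KPC-shV and 1838 CPM in the one labelled KPC-shZEB1, in monocyte-macrophage-like cells. The next level was 638 and 695 CPM in fibroblast-like cells, 2.81-fold lower as a mean of both libraries, and it overlapped with that of granulocyte-like cells at 694 and 598 CPM and through these with endothelial-like cells at 614 and 580 CPM. Tumour-like cells held 355 and 361 CPM. The lymphoid classes were lowest, with 182 and 253 CPM in T-like, 193 and 197 CPM in NK-like and 128 and 207 CPM in B-like cells, all overlapping in turn, and dendritic-like cells stood just above them at 293 and 325 CPM. By level, Ctsb was thus highest in myeloid cells other than dendritic cells, and in stroma, in both tumours. Tumour-like cells, at a lower level, still gave 14.7% and 9.15% of its UMIs.

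Ctsl encodes cathepsin L, an endopeptidase that also processes the invariant chain in thymic epithelium. Its level was 823 CPM (806 to 840) and 830 CPM (813 to 848) in fibroblast-like cells, and 771 CPM (760 to 782) and 579 CPM (572 to 587) in monocyte-macrophage-like cells. Tumour-like cells followed at 457 and 342 CPM, overlapping with endothelial-like cells at 364 and 271 CPM, and granulocyte-like cells held 262 and 202 CPM. The order of the first 2 classes was not firm, since the libraries differed in their leading class when a looser cell filter was used, when the top 8% of doublet scores were removed or when each library was clustered alone. Dendritic-like cells held 135 and 114 CPM, B-like cells 80.5 and 113 CPM, NK-like cells 76.2 and 69.2 CPM and T-like cells 66.5 and 74.5 CPM. An overlapping gene model on the same strand, Gm49230, shares exons with Ctsl in GENCODE vM21 and is not among the genes of the files, and the same holds for Gm49369 and Ctsd, so how reads of the shared exons were counted is uncertain for both.

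Ctsd encodes cathepsin D, the main aspartic protease of lysosomes. Monocyte-macrophage-like cells held 1485 and 1350 CPM, 2.54-fold above granulocyte-like cells at 613 and 505 CPM. Fibroblast-like cells at 379 and 340 CPM overlapped with NK-like cells at 368 and 322 CPM. Tumour-like cells held 283 and 309 CPM, T-like cells 226 and 231 CPM and endothelial-like cells 205 and 249 CPM. The lowest were dendritic-like cells, with 136 and 174 CPM, and B-like cells, with 107 and 191 CPM. Dendritic-like cells, by the mean of both libraries next after monocyte-macrophage-like cells for Ctsc, Ctsh, Ctss and Ctsz, were thus near the bottom for Ctsd.

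Ctsc encodes cathepsin C, the dipeptidyl peptidase that activates granzymes and the serine proteases of neutrophils. It stood at 1747 and 1564 CPM in monocyte-macrophage-like cells, 4.73-fold above dendritic-like cells at 315 and 385 CPM, which overlapped with fibroblast-like cells at 328 and 293 CPM. Granulocyte-like cells held 236 and 249 CPM, overlapping with B-like cells at 207 and 263 CPM. T-like cells, which include regulatory and CD4 T-like clusters, were low at 129 and 178 CPM, and NK-like cells at 114 and 139 CPM. The macrophage-RNA level was 50.7% and 72.1% of Ctsc in T-like and 80.6% and 94.2% in NK-like cells. Tumour-like cells at 69.7 and 108 CPM and endothelial-like cells at 58.3 and 88.8 CPM were lowest.

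Ctsh encodes cathepsin H, an aminopeptidase. Its levels were spread more evenly over the top classes, with 414 and 439 CPM in monocyte-macrophage-like cells, 362 and 330 CPM in dendritic-like cells and the fibroblast-like class at 224 and 327 CPM. B-like cells held 194 and 193 CPM, tumour-like cells 89.1 and 133 CPM and granulocyte-like cells 64.2 and 94.1 CPM. At the low end were endothelial-like cells with 39.3 and 59.7 CPM, NK-like cells with 27.9 and 53.0 CPM and T-like cells with 27.4 and 46.2 CPM. B-like cells thus stood clear of T-like cells in both libraries.

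Ctsz encodes cathepsin Z (also called X), a carboxypeptidase. It was highest in monocyte-macrophage-like cells, at 784 and 867 CPM, then in dendritic-like cells at 464 and 500 CPM and granulocyte-like cells at 380 and 364 CPM. Fibroblast-like cells with 207 and 267 CPM, tumour-like cells with 195 and 227 CPM and B-like cells with 166 and 206 CPM overlapped in turn. Endothelial-like cells held 120 and 151 CPM, NK-like cells 88.9 and 130 CPM and T-like cells 81.5 and 116 CPM. As with Ctsh and Ctss, the 2 leading classes were myeloid in both libraries.

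Ctss encodes cathepsin S, which trims the invariant chain from MHC class II molecules and stays active at neutral pH. It was at 2142 CPM (2124 to 2161) and 2363 CPM (2348 to 2379) in monocyte-macrophage-like cells, 3.04-fold above dendritic-like cells at 668 and 814 CPM. B-like cells came next with 417 and 507 CPM, so that the 3 leading classes were those that present antigen by MHC class II. Granulocyte-like cells held 246 and 399 CPM. The remaining classes overlapped in turn, with 160 and 218 CPM in T-like, 114 and 190 CPM in NK-like, 76.2 and 222 CPM in endothelial-like, 95.1 and 165 CPM in tumour-like and 70.1 and 146 CPM in fibroblast-like cells. In the last 4 of these, NK-like, endothelial-like, tumour-like and fibroblast-like cells, the macrophage-RNA level was 93.4% to 119% of the measured Ctss level in either library, so that Ctss was at or near it there. It was 13.7% and 25.5% of the level in dendritic-like cells and 22.6% and 44.1% in B-like cells.

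Ctsk encodes cathepsin K, a collagenase best known from osteoclasts. It was at 196 CPM (188 to 205) and 169 CPM (161 to 177) in fibroblast-like cells, 12.8-fold above the next class, monocyte-macrophage-like cells at 8.60 and 19.99 CPM. Fibroblast-like cells gave 77.3% and 59.8% of all its UMIs. At least 1 UMI was found in 89.9% and 92.9% of them at a median depth of 29248 and 28011 UMIs, beside 1.74% and 2.2% of B-like cells at a median of 3732 and 3417 UMIs. Thinned to 1000 UMIs a cell, the shares were 13.7% and 14.4% of fibroblast-like cells, 0 of 288 B-like cells in KPC-shV, which allows up to 1.04%, and 0.570% of those in the other library. Endothelial-like cells held 7.51 and 15.1 CPM, and the other 6 classes 0.898 to 7.38 CPM, with 2 and 1 UMIs in NK-like cells.

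Ctsw encodes cathepsin W, a protease known from cytotoxic lymphocytes. It was highest in NK-like cells, at 340 CPM (285 to 403) and 377 CPM (342 to 415), and next in T-like cells, at 139 CPM (126 to 154) and 146 CPM (138 to 155). The 7 other classes held 0.813 to 6.70 CPM and overlapped in turn, and the T-like level was 28.8-fold above the first of them. A UMI was found in 85.2% and 75.1% of NK-like cells and 45.8% and 40.9% of T-like cells, beside 0.694% and 1.71% of B-like cells. T-like cells, being more numerous, gave 55.7% and 54.9% of all Ctsw UMIs and NK-like cells 20.1% and 20.6%. This split depends on the naming. Lymphoid sub-clusters without the name of NK or group 2 innate lymphoid cells were counted as T-like. The first clustering had named 136 and 439 cells NK, beside 54 and 177 kept as NK-like.

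Within the lymphocytes, Ctsw set subsets apart. The NK-like cluster led by Zmat4 and Gzmc, 20 and 52 cells, held 407 and 489 CPM. The cluster led by Klra4 and Klra8, 34 and 125 cells, held 272 and 310 CPM. Both had fewer than 50 cells in KPC-shV. Among T-like clusters with at least 50 cells in each library, the one led by Klra1, Klra6 and Klra7, which got no subset name, held 254 and 282 CPM. The CD8 T-like cluster led by Dapl1 held 113 CPM in both and the regulatory T-like cluster 113 and 121 CPM. The CD8 T-like clusters led by Gm156, 41 and 134 cells, and by Gzmk, 6 and 39 cells, fell under that limit. The Dapl1-led cluster thus does not stand for all CD8 T-like cells. Gamma-delta T-like cells, 35 and 57 in number, were lower, at 63.9 and 59.7 CPM. CD4 T-like cells held 71.8 and 123 CPM, below the Dapl1-led and regulatory clusters in KPC-shV but not in the other library. No Ctsw UMI was found in the 9 and 18 group 2 innate lymphoid-like cells, whose few UMIs allow a level of up to 54.8 and 38.0 CPM.

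For the comparison of the libraries, a gene in a class was called when its ratio was at least 1.5, or at most 1 over 1.5, with an interval that left out 1, and 77 of the 81 pairs of gene and class had the 30 UMIs needed. In the library labelled KPC-shZEB1, 17 pairs in 8 classes were called higher and 0 lower. Of the 77 ratios 55 were above 1, 43 with the whole interval above 1, and 14 intervals were below 1. The shares of all genes called in a class, which follow, are the background against which these counts are read.

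**Figure D2:**
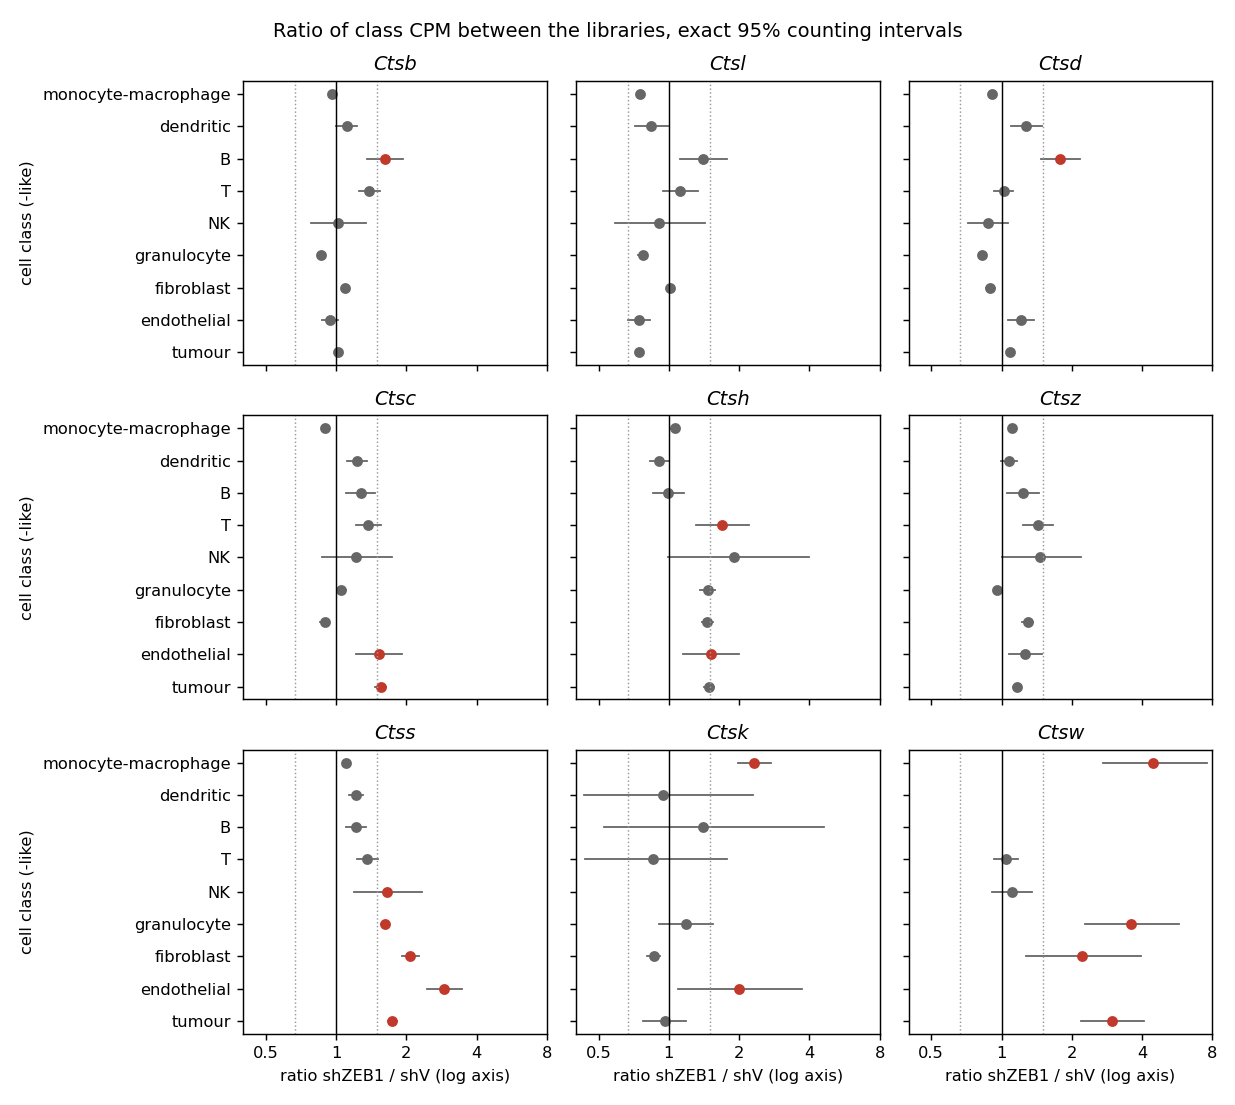
Ratio of the level in KPC-shZEB1 over KPC-shV (log axis) for each cathepsin gene and class, with exact 95% intervals as lines. Red points were called higher, dotted lines mark 1.5 and its inverse, and pairs under 30 UMIs are left out. The called points lie mainly in the Ctss and Ctsw panels, and the Ctsl panel has 5 intervals wholly below 1, with ratios of 0.744 to 0.842.

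Monocyte-macrophage-like cells, with the largest number of cathepsin UMIs, differed little between libraries. Called higher were 2 of 9, Ctsk and Ctsw, beside 7.76% of all genes, and 0 lower beside 1.63%. Ctss at 1.10 (1.09 to 1.12), Ctsz at 1.11 (1.09 to 1.13) and Ctsh at 1.06 (1.04 to 1.09) lay slightly above 1. Ctsb at 0.961 (0.949 to 0.972), Ctsd at 0.909 (0.896 to 0.921), Ctsc at 0.895 (0.884 to 0.907) and Ctsl at 0.751 (0.737 to 0.766) lay below it, Ctsl farthest. The Ctsk difference, from 8.60 to 19.99 CPM (ratio 2.32, 1.99 to 2.73), rested on few cells, since 5 cells gave 61.4% of its UMIs in the latter library. Without the 5 cells with most Ctsk UMIs in each library, the ratio was 1.15 (0.941 to 1.40), and with a looser cell filter it was 0.968. Ctsw stood at 0.813 CPM with 19 UMIs and 3.61 CPM with 137 UMIs.

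Ctss had an interval wholly above 1 in all 9 classes, with 5 calls, and Ctsz in 7 classes with 0 calls, whereas Ctsl had the most intervals wholly below 1, in 5 classes. Besides the class above, the ratio was 0.748 (0.729 to 0.768) in tumour-like, 0.772 (0.738 to 0.808) in granulocyte-like, 0.744 (0.666 to 0.829) in endothelial-like and 0.842 (0.719 to 0.989) in dendritic-like cells, but at 1.01 (0.980 to 1.04) in fibroblast-like cells, where it is highest. In B-like cells the ratio was 1.40 (1.12 to 1.77), with 33.5% of the UMIs of the library labelled KPC-shZEB1 in 5 of 1227 cells. Without the 5 cells with most Ctsl UMIs in each library, it was 1.11 (0.865 to 1.44) there and 0.997 (0.832 to 1.20) in dendritic-like cells. None of the lower ratios passed the 1.5-fold limit. With the macrophage-RNA level subtracted, Ctsl passed it in dendritic-like cells at 0.615, in endothelial-like cells at 0.654 and in granulocyte-like cells at 0.647.

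In tumour-like cells 3 of 9 were called higher beside 10.3% of all genes, and 0 lower beside 3.54%. Ctsc was at 69.7 and 108 CPM (1.55, 1.47 to 1.64), Ctss at 95.1 and 165 CPM (1.74, 1.66 to 1.82) and Ctsw at 1.79 and 5.33 CPM (2.97, 2.19 to 4.07). The macrophage-RNA level was 117% and 115% of Ctsc and 105% and 114% of Ctss, so that neither exceeded it. With the clusters weighted by their pooled share of cells the ratio of Ctss was 1.04 and that of Ctsc 1.16. This weighting counts cells, so the S100a14-led cluster, with few UMIs a cell and the highest Ctss and Ctsc, weighs more than in the sums. Within the 3 clusters with at least 50 cells in each library, Ctss was called higher in 2 and Ctsc in 1. The Ctss ratio was 0.769 in the S100a14-led cluster and 2.08 in the Cntn5-led one. Ctsh at 1.49 (1.42 to 1.56) lay just inside the limit, whereas Ctsb at 1.02 (0.989 to 1.04) and Ctsd at 1.09 (1.06 to 1.12) were nearly level.

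In granulocyte-like cells 2 of 9 were called higher, beside 21.0% of all genes, a share near that of the members, and 0 lower beside 2.44%. Ctss stood at 246 and 399 CPM (1.62, 1.56 to 1.68), with a macrophage-RNA level of 46.2% and 60.6% of these values, and Ctsw at 1.27 and 4.55 CPM (3.58, 2.27 to 5.79). The call of Ctss ended with clusters weighted by their pooled share, at 1.47 (1.42 to 1.53, the main interval scaled to this ratio), and with the macrophage-RNA level subtracted, at 1.19. Ctsb at 0.861 (0.838 to 0.884) and Ctsd at 0.824 (0.801 to 0.849) were lower. In fibroblast-like cells 2 of 9 were called higher beside 5.66%, and 0 lower beside 4.76%, namely Ctss with a ratio of 2.08 (1.91 to 2.27) and Ctsw with 2.21 (1.27 to 3.95) from 20 and 44 UMIs. The fibroblast-like Ctsk ratio was 0.861 (0.808 to 0.917). The border of this class with tumour-like cells moved when each library was clustered alone, but in KPC-shV only. That library then had 875 fibroblast-like cells in place of 358, and 510 of them were tumour-like in the joint clustering. The library labelled KPC-shZEB1 had 395 in place of 381, with 7 tumour-like before. The ratio of Ctsk was then 1.96, that of Ctsc 1.75 in place of 0.892 and that of Ctsh 2.67 in place of 1.46. These ratios set unlike classes against each other. With the top 8% of doublet scores removed, 459 and 170 of the fibroblast-like cells were tumour-like in the main clustering.

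In endothelial-like cells, 147 and 80 in number, 4 of 8 were called higher beside 7.84%, and 0 lower beside 5.16%. Ctss at 76.2 and 222 CPM (2.91, 2.46 to 3.45) had the largest ratio of a cathepsin above 50 CPM. Ctsc at 58.3 and 88.8 CPM and Ctsh at 39.3 and 59.7 CPM both had a ratio of 1.52, and Ctsk rested on 21 and 27 UMIs with a ratio of 2.01 (1.09 to 3.73). In the library labelled KPC-shZEB1, 5 of the 80 cells gave 51.1% of the Ctss UMIs, 43.9% of Ctsh, 31.4% of Ctsc and 77.8% of Ctsk. Without the 5 cells with most UMIs of the gene in each library, Ctss stayed called at 1.86 (1.51 to 2.29), Ctsc at 1.38 (1.07 to 1.79) and Ctsh at 1.19 (0.838 to 1.67) did not, and Ctsk had too few UMIs to compare. The macrophage-RNA level was 101% and 93.4% of Ctss and 108% and 154% of Ctsc. As a mean of each cell's own CPM the ratio of Ctsh was 0.934.

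In the lymphoid classes the calls were few. In B-like cells 2 of 8 were called higher beside 6.23%, and 0 lower beside 1.79%, Ctsb from 128 to 207 CPM (1.61, 1.35 to 1.93) and Ctsd from 107 to 191 CPM (1.78, 1.47 to 2.17). The macrophage-RNA level was 65.7% and 84.2% of Ctsb there. In NK-like cells 1 of 8 was called higher beside 5.38%, and 0 lower beside 3.18%, Ctss with 45 and 211 UMIs (1.66, 1.20 to 2.34). In T-like cells 1 of 9 was called higher beside 5.43%, and 0 lower beside 2.07%, Ctsh from 27.4 to 46.2 CPM (1.68, 1.31 to 2.2), a call that ended at 1.19 when each library was clustered alone. In dendritic-like cells 0 of 8 were called higher, beside 5.50% of all genes, and 0 lower beside 3.57%, with Ctsc at 1.23 (1.11 to 1.35), Ctsd at 1.28 (1.10 to 1.49) and Ctss at 1.22 (1.14 to 1.3). Where Ctsw is at its highest it differed little, with ratios of 1.11 (0.911 to 1.36) in NK-like and 1.05 (0.930 to 1.18) in T-like cells. Its 4 calls were all in classes at 5.33 CPM or less, in which the 6 markers of the T list summed to 9.84 to 17.9 CPM in KPC-shV and 30.7 to 44.8 CPM in that labelled KPC-shZEB1. The part of T-cell RNA in the Ctsw calls was not tested.

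**Figure D3:**
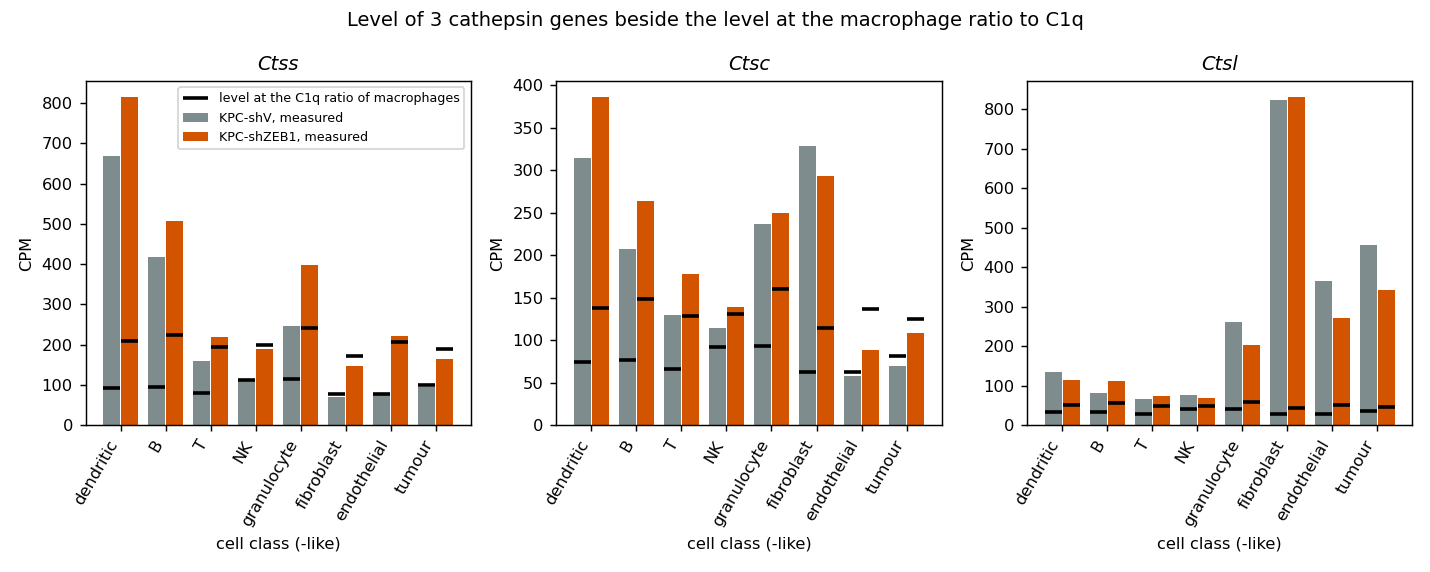
Level of Ctss, Ctsc and Ctsl (bars, CPM) in the 8 classes other than monocyte-macrophage-like cells, in KPC-shV (grey) and KPC-shZEB1 (orange). Black lines mark the macrophage-RNA level, which reaches the Ctss bars of NK-like, fibroblast-like, endothelial-like and tumour-like cells, at 93.4% to 119% of them, and stays below every Ctsl bar.

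The macrophage-RNA level thus separated the genes. It was at least 90% of the measured level in 4 of 8 classes for Ctss in each library, and in 2 and 3 of 8 for Ctsc, but in none for Ctsb, Ctsd, Ctsh, Ctsl, Ctsw and Ctsz. For Ctsl it reached at most 53.4% and 70.3%, both in NK-like cells. With it subtracted, 5 pairs stayed called higher, Ctsk in monocyte-macrophage-like cells, where nothing is subtracted, and Ctsw in 4 classes, and 5 pairs were called lower. Whether too much was subtracted in these pairs was not tested. Called pairs in which it exceeded the measured level in either library had no ratio left. These were Ctss in NK-like, endothelial-like, fibroblast-like and tumour-like cells, and Ctsc in endothelial-like and tumour-like cells.

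Within the monocyte-macrophage-like class, 11 sub-clusters had at least 50 cells in each library, and the cathepsins divided them. Ctsb was highest in the sub-cluster led by Marco, Lyve1 and Cd163, genes of tissue-resident macrophages, at 3697 and 3590 CPM, and lowest in the monocyte-like one led by Chil3 and Ly6c2, at 590 and 700 CPM. Ctsl was concentrated in the sub-cluster led by Adm, Gpnmb, Mmp8 and Atp6v0d2, with 2972 and 1741 CPM, beside 233 to 882 CPM in the 10 others. This sub-cluster also had the highest Ctsd, at 3361 and 3439 CPM, and Ctsz, at 1190 and 1155 CPM. Ctss was highest, as a mean of both libraries, in the sub-cluster led by Adamdec1, at 3080 and 2968 CPM, and only the Nos2- and Cxcl9-led one, with 23 and 207 cells, held more at 3602 and 3278 CPM. Ctss varied least with Ctsc and Ctsh, the highest over the lowest being 2.22-fold for Ctss, 1.86-fold for Ctsc and 1.46-fold for Ctsh against 9.03-fold for Ctsl and 9.02-fold for Ctsd.

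**Figure D4:**
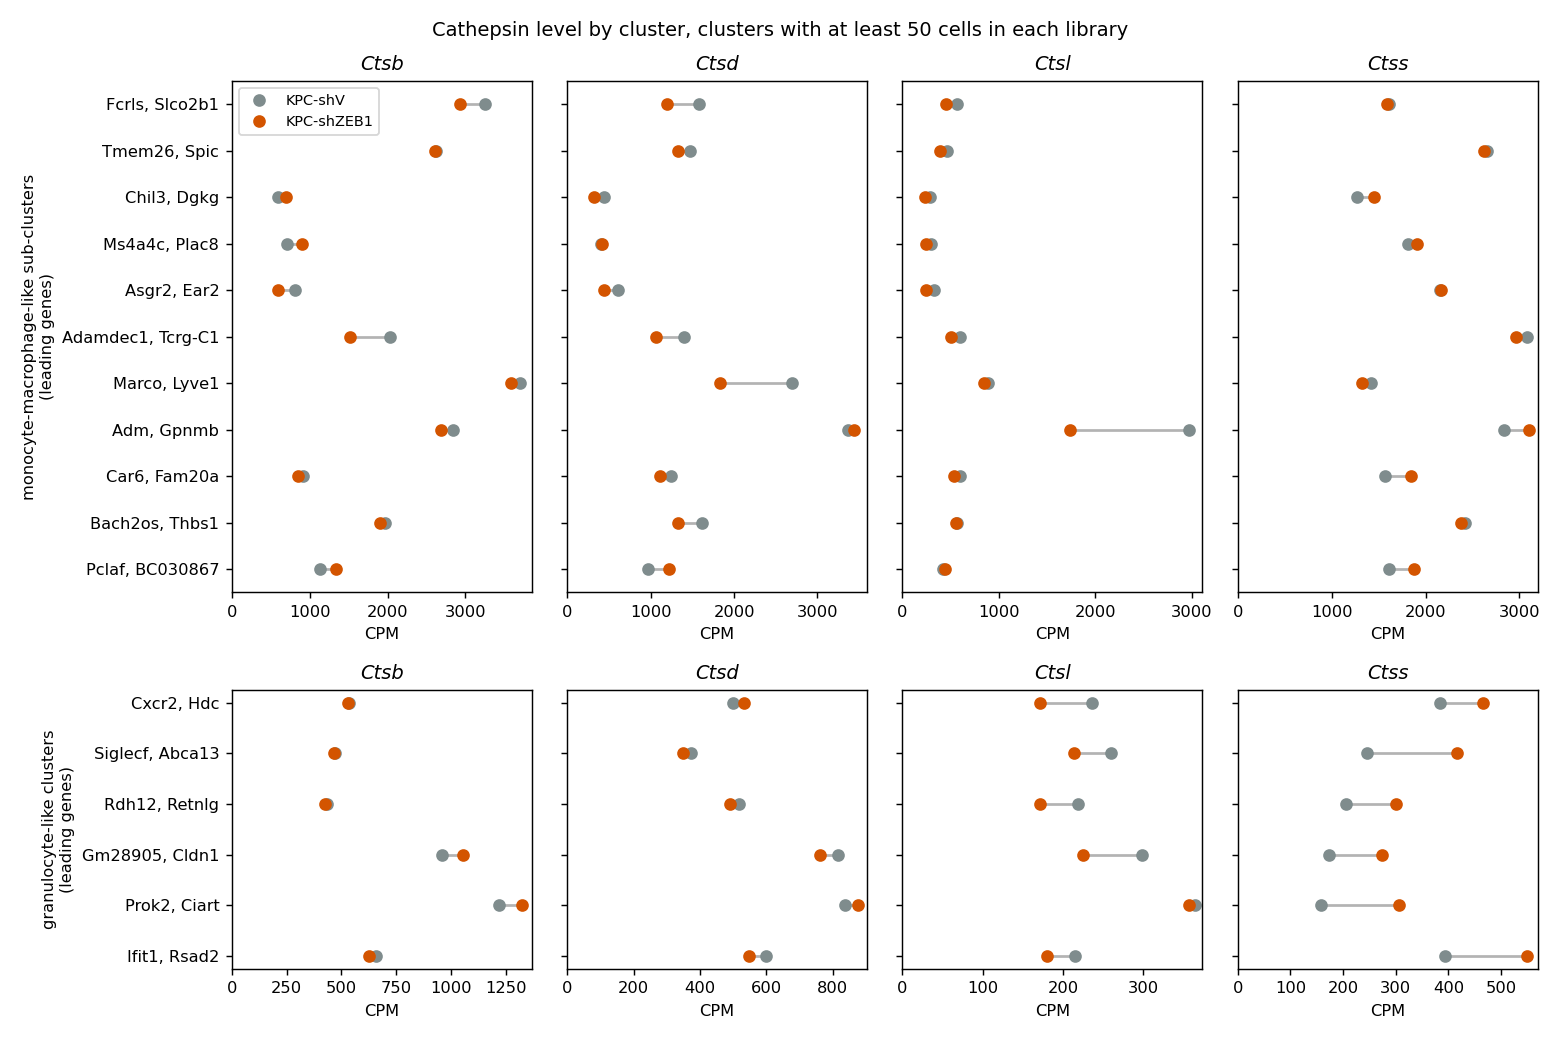
Level (CPM) of Ctsb, Ctsd, Ctsl and Ctss in the 11 monocyte-macrophage-like sub-clusters (top) and the 6 granulocyte-like clusters (bottom), each named by leading genes, in KPC-shV (grey) and KPC-shZEB1 (orange). The Adm- and Gpnmb-led sub-cluster stands apart for Ctsl, at 2972 and 1741 CPM, and the Prok2-led granulocyte-like cluster for Ctsb, at 1220 and 1325 CPM.

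Grouped by name, macrophage-like cells held 2456 and 2231 CPM of Ctsb and monocyte-like cells 790 and 828 CPM. For Ctsd the levels were 1836 and 1602 CPM against 869 and 755 CPM, and for Ctsl 964 and 689.5 CPM against 455 and 390 CPM. Ctsc, at 1872 and 1595 CPM against 1586 and 1549 CPM, and Ctsh, at 434 and 459 CPM against 355 and 383 CPM, differed less between the 2 kinds of cell. The Ctsl ratio between libraries was below 1 in 10 of the 11 sub-clusters, from 0.586 (0.567 to 0.605) in the Adm- and Gpnmb-led one to 1.03. That sub-cluster gave 42.2% of the Ctsl UMIs of the class in KPC-shV, but 30.8% in that labelled KPC-shZEB1, and without it the class ratio was 0.893 (0.871 to 0.915). The called Ctsk difference lay in the sub-cluster led by Pclaf and Pbk, genes of dividing cells, at 3.49 and 104 CPM. It gave 4.48% and 63.2% of the Ctsk UMIs of the class, and without it the class ratio was 0.905 (0.751 to 1.09). As given above, few cells carried most of these UMIs in the library labelled KPC-shZEB1. How many of those cells lay in this sub-cluster was not examined, so its level may not stand for its cells at large.

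The 6 granulocyte-like clusters differed less, by 2.95-fold in Ctsb and 2.38-fold in Ctsd from the lowest to the highest, against 5.65-fold and 9.02-fold among the sub-clusters above. Ctsb stood at 1220 and 1325 CPM in the cluster led by Prok2 and Ciart and at 436 and 426 CPM in the one led by Rdh12 and Retnlg, a gene of mature neutrophils. Ctsd was highest in the same Prok2-led cluster, at 837 and 877 CPM. Within clusters, the Ctsb ratios ran from 0.951 to 1.10 and the Ctsd ratios from 0.916 to 1.07, although the class ratios were 0.861 and 0.824. The Prok2-led cluster made up 14.4% of the class in KPC-shV, but 6.89% in that labelled KPC-shZEB1, and the Cldn1-led cluster, next in Ctsb, 24.8% and 11.1%. With clusters weighted by pooled shares, the class ratios were 1.04 for Ctsb and 0.978 for Ctsd. Ctss was above 1 in all 6 clusters, from 1.21 to 1.95, and Ctsl below 1 in all 6, from 0.726 to 0.983.

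Of the tumour-like clusters with at least 50 cells in each library, the Cntn5-led one carried 4 of the 8 tumour markers, and Ctsl was lower in the library labelled KPC-shZEB1 in all 3 of them, with ratios of 0.574 to 0.848. A shallow one, led by S100a14 and Dbf4 with a median of 2179 and 2235 UMIs a cell, held 818 and 629 CPM of Ctss beside 68.4 and 142 CPM in the Cntn5-led cluster. It made up 22.0% and 26.2% of the class, and without it Ctsh was called as well, giving 18 pairs. Among dendritic-like subsets, the plasmacytoid-like cells, 15 and 40 in number, stood out by Ctsb at 777 and 993 CPM, Ctsh at 725 and 800 CPM and Ctsl at 754 and 574 CPM. The type 2 conventional-like cells led for Ctss at 913 and 1033 CPM, for Ctsz at 544 and 587 CPM and for Ctsc at 459 and 471 CPM. Ctss was lower, at 459 and 577 CPM, in mature dendritic-like cells.

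The partners of cathepsins were taken from lists of lysosomal, inhibitor and antigen-processing genes. Their counts are read beside the shares of all genes called in a class, 5.38% to 21.0% higher and 1.63% to 5.16% lower. In monocyte-macrophage-like cells, 0 of 30 lysosomal enzymes and membrane proteins and 0 of 16 subunits of the proton pump, which acidifies the lysosome, were called in either direction. Of all genes there, 7.76% were called higher and 1.63% lower. The medians were -0.01 on the log2 scale for both lists and 0.05 for all genes. The lowest ratio among the lysosomal genes above 50 CPM was that of Lgmn, which encodes legumain, another lysosomal cysteine protease, at 981 and 741 CPM (0.755, 0.742 to 0.768), close to that of Ctsl. Over all classes the lysosomal list had 22 pairs called higher and 3 lower of 262 compared.

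Genes of MHC class II and its chain processing, substrates and partners of cathepsins S and L, had 58 of 92 pairs called higher and 0 lower. By class, 5.38% to 21.0% of all genes were called higher and 1.63% to 5.16% lower. They were called in 11 of 11 in granulocyte-like, 10 of 11 in tumour-like and in fibroblast-like, 8 of 8 in endothelial-like, 7 of 11 in T-like and 6 of 7 in NK-like cells, but in 5 of 11 in monocyte-macrophage-like, 1 of 11 in dendritic-like and 0 of 11 in B-like cells. Cd74, the invariant chain that cathepsin S cuts, stood at 5144 and 8053 CPM in monocyte-macrophage-like cells (1.57, 1.56 to 1.58), beside a Ctss ratio of 1.10. Outside them it stood in tumour-like cells at 453 and 1188 CPM (2.62, 2.57 to 2.67) and in granulocyte-like cells at 252 and 853 CPM (3.39, 3.28 to 3.50). C1q was 2.25 to 3.44 times higher in all 8 classes other than monocyte-macrophage-like cells, and the part of macrophage RNA in these counts was not tested.

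The cathepsin inhibitors were called in both directions, 16 pairs higher and 21 lower of 82. This count and those of the lists below stand beside 5.38% to 21.0% of all genes called higher in a class, and 1.63% to 5.16% lower. In granulocyte-like cells 4 of 13 were higher and 6 lower, beside 21.0% and 2.44% of all genes. Their median was -0.55 on the log2 scale, beside 0.28 for all genes and 0.08 for genes above 50 CPM. Cstb, which encodes the cytosolic inhibitor cystatin B, stood there at 1134 and 553 CPM (0.487, 0.475 to 0.4998) and Csta2, a stefin of neutrophils, at 110.5 and 51.7 CPM (0.468, 0.429 to 0.509). Cst3, the secreted inhibitor cystatin C, was higher at 479 and 887 CPM (1.85, 1.80 to 1.90). Cstb was below 1 in all 9 classes, between 0.487 and 0.935. Of the serine proteases that cathepsin C activates, Gzmc in NK-like cells was at 1305 and 192 CPM (0.147, 0.125 to 0.173) and Gzmb at 434 and 234 CPM (0.540, 0.443 to 0.659), while Ctsc there had a ratio of 1.22 (0.869 to 1.74). In T-like cells Gzmb was at 199 and 98.7 CPM (0.496, 0.443 to 0.555). Over all classes 9 of 34 pairs of this list were called higher and 5 lower. Of the 14 other cathepsin genes, 2 of 29 pairs were called higher and 0 lower, among them Ctse in NK-like cells at 30.5 and 57.5 CPM (1.89, 1.01 to 3.84). The 6 sorting genes had 2 of 50 pairs called higher, the 5 lysosomal transcription factors 2 of 42, and the proton pump 3 higher and 2 lower of 141. Both lower ones were in granulocyte-like cells, where its median was -0.27 on the log2 scale beside 0.28 for all genes and 0.08 for genes above 50 CPM.

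**Figure D5:**
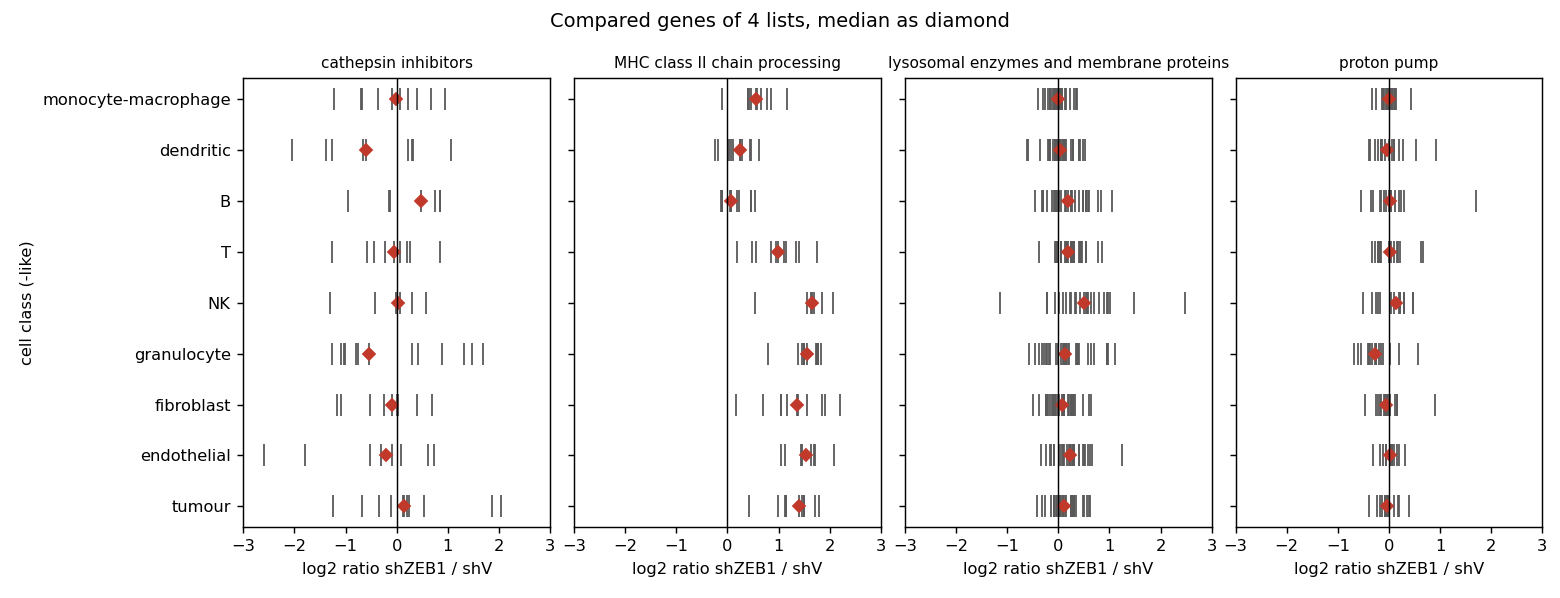
Log2 ratio of KPC-shZEB1 over KPC-shV for each compared gene (ticks) of 4 lists in each class, with the median as a diamond. The MHC class II medians lie well to the right of 0 in 6 classes, up to 1.65 in NK-like cells, the granulocyte-like inhibitors have a median of -0.55, and the proton pump medians run from -0.27 in granulocyte-like to 0.14 in NK-like cells.

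The genes most like each cathepsin were found by Pearson's r of log2(CPM + 1) over the 18 values of 9 classes in 2 libraries among 7068 genes. These are descriptions, since the values share libraries, depth and macrophage RNA. Ctsb was most like Tpp1, which encodes a lysosomal peptidase, at 0.94, then Cltc and Scamp1. Ctsl was closest to Cd63 at 0.94, Ctsd to Gde1 at 0.90, Ctsc to Apobec1 at 0.94, Ctsh to Erp29 at 0.93 and Ctsz to Lacc1 at 0.96. Ctss was closest to Cybb, the phagocyte oxidase subunit, at 0.95, Ctsk to Enox1 at 0.95 and Ctsw to the lymphocyte receptor gene Klra7 at 0.99. Among the members themselves, Ctsb and Ctsl had an r of 0.84, Ctsc and Ctss 0.83 and Ctsh and Ctsz 0.82, while the chromosome 3 neighbours Ctsk and Ctss had an r of -0.17.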

How the data were processed

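The authors deposited UMI counts of the called cells, from 2 single-cell 3′ libraries (10x Genomics v3.1) of whole dissociated tumours, made with Cell Ranger 7.0.1 on mm10 per the submitters' processing notes. Whether intronic reads were counted is not given in the sources used here.

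Barcodes under 500 genes, outside 1000 to 60000 UMIs or over 15% mitochondrial UMIs were dropped, and 319 (2.72%) and 334 (2.68%) barcodes with a Scrublet score above 0.2 were removed. Both libraries were clustered together with scanpy 1.11.5 (3000 variable genes, 30 components, 20 neighbours, Leiden resolution 1), and clusters were named from marker lists, by a rule set after clusters had been seen. ILC2-like and unnamed clusters (9 and 18, and 56 and 584 cells) were not compared. Counts were summed per class and divided by the class total (CPM). Levels have exact Poisson intervals, ratios exact conditional binomial ones and shares Clopper-Pearson ones (95%). For the mean of cell CPM, the other scaling and cluster weighting, the main interval was scaled to the new ratio. After subtraction of macrophage RNA the interval was approximate. These intervals leave out the error of the weights and of the subtracted level. A call needs 50 cells in each library, 30 UMIs, a 1.5-fold ratio and an interval without 1. No p-value is given, because the labels give 1 tumour a group. The call rule was tested on simulated data. The macrophage-RNA level is the class's C1q level times the gene's ratio to C1q in monocyte-macrophage-like cells of the same library.

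All 9 cathepsins are named. Of each list at most the 2 largest and 2 smallest ratios above 50 CPM in 1 library are named, and for each cathepsin up to 3 most similar genes. The members and lists were chosen with earlier results of these data known. Alternatives were the mean of cell CPM, another scaling, a looser filter, other doublet limits, separate clustering, subtraction of macrophage RNA and cluster weighting. 3 were added after seeing the data: no shared barcodes, no shallow tumour-like cluster, and without the 5 cells with most UMIs.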

Additional observations from a re-analysis of the deposited data

Results flagged for a closer look

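Some cathepsins had a ratio of KPC-shZEB1 over KPC-shV above 1 in 1 class and below 1 in another, with neither interval reaching 1. None of these differences between classes was tested, since each group has 1 library. Ctsb stood at 1.61 (1.35 to 1.93) in B-like cells and 0.861 (0.838 to 0.884) in granulocyte-like cells. Ctsd stood at 1.78 (1.47 to 2.17) and 0.824 (0.801 to 0.849) in the same classes. The macrophage-RNA level was 65.7% and 84.2% of Ctsb and 60.8% and 66.8% of Ctsd in B-like cells. With clusters weighted by pooled shares, the granulocyte-like ratios of both genes lay near 1. Ctsc was at 1.55 (1.47 to 1.64) in tumour-like and 0.892 (0.850 to 0.936) in fibroblast-like cells. In tumour-like cells its level did not exceed the macrophage-RNA level, which was 117% and 115% of it. Ctsk was at 2.32 (1.99 to 2.73) in monocyte-macrophage-like cells, where 5 cells carried most of the UMIs of 1 library, and 0.861 (0.808 to 0.917) in fibroblast-like cells. Ctsl was at 1.40 (1.12 to 1.77) in B-like and 0.744 (0.666 to 0.829) in endothelial-like cells. The B-like value rested on few cells, since it was 1.11 (0.865 to 1.44) without the 5 cells with most Ctsl UMIs in each library. Ctsz was at 1.47 (1.01 to 2.18) in NK-like and 0.959 (0.926 to 0.993) in granulocyte-like cells.

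Cathepsin UMIs were also found in 2 clusters that entered no comparison. In the cluster led by Ralyl, with 25 and 244 cells, the highest was Ctsb at 588 CPM in KPC-shZEB1 and 467 CPM in KPC-shV. In the cluster carrying acinar transcripts, with 21 and 282 cells, Ctsl stood at 288 CPM in KPC-shZEB1 and 495 CPM in KPC-shV. It was the highest cathepsin there in KPC-shV, and Ctsb at 466 CPM in KPC-shZEB1.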

How the results depend on the processing

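No paired analysis was possible because each group has 1 library, and for the same reason no replicate could be left out. The count of 17 pairs higher and 0 lower was 14 to 18 and 0 under the other alternatives run, and 15 and 0 without the 5 cells with most UMIs of a gene (74 pairs). Of the 17 pairs, 13 to 17 kept their call under these. The exception was subtraction of the macrophage-RNA level, an estimate that exceeded the measured level in some pairs, with 5 pairs higher and 5 lower of 71. The lower ones were Ctss in T-like cells, Ctsc in granulocyte-like cells and Ctsl in dendritic-like, endothelial-like and granulocyte-like cells. The pairs without a ratio after subtraction had all been called higher before it. They were Ctss in NK-like, endothelial-like, fibroblast-like and tumour-like cells, and Ctsc in endothelial-like and tumour-like cells. Called pairs whose ratio crossed 1 were Ctsh in endothelial-like cells at 0.934 as the mean of cell CPM and 0.871 after subtraction, Ctsk in monocyte-macrophage-like cells at 0.968 with the looser filter, and, after subtraction, Ctsb in B-like cells at 0.742 and Ctsh in T-like cells at 0.860. The cause was not tested. The same highest class in both libraries held for 9 genes, or for 8 (not Ctsl) with the looser filter, the 8% doublet limit and separate clustering, which left 69 pairs in 8 classes. Depth limited Ctsk and Ctsw most: 4 pairs had under 30 UMIs, and the call for Ctsk in endothelial-like cells rested on 21 and 27.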
